A study of Mus musculus with 4 samples.

Results

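The ephrins and Eph receptors described here are 6 genes, the ligands Efna1, Efnb1 and Efnb2 and the receptors Ephb4, Epha4 and Epha2, out of 20076 genes in a single-cell count matrix of mouse lung. They were chosen as the listed members of one signalling family, and all 6 were in the matrix. The matrix held 9363 cells from whole lungs of 4 mice on a C57/BL6 background, 1 library per mouse. The 2 mice labelled WT carried floxed Erg alleles (ERG fl/fl) without Cre, and the 2 mice labelled ERG CKO carried the same floxed alleles with CDH5-CreER(T), a Cre recombinase that tamoxifen activates in cells that use the Cdh5 promoter, which are mainly endothelial cells (ECs). Both groups received 5 daily injections of 0.5 mg tamoxifen, so the drug and the floxed alleles are shared and Cre is the labelled difference. Lungs were taken 90 days after the last injection. The age of these mice is not given in the sources used here. The p-values below measure the spread between 2 mice per group. In fits that leave out 1 library, 1 group holds 1 mouse, and the spread comes from the other group alone.

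Ephrins are membrane-bound ligands, and Eph receptors are the receptor tyrosine kinases that bind them on a neighbouring cell. A-type ephrins are held in the membrane by a lipid anchor and B-type ephrins cross it, so both the ligand-bearing and the receptor-bearing cell can respond to contact. In blood vessels, ephrin-B2 is a classical marker of arteries and its receptor EphB4 of veins, and the pair is needed to keep growing arteries and veins apart. ERG is an endothelial transcription factor of the ETS family, whose members bind DNA at a GGAA core.

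Cells were grouped by marker genes into named classes, and the ECs into arterial ECs, general capillary (gCap) ECs, aerocytes (aCap ECs) and venous ECs. The EC class held 2515 cells (577 and 699 in the WT libraries, 739 and 500 in the ERG CKO libraries), of which 1755 were gCap ECs, 313 aCap ECs, 167 venous ECs and 84 arterial ECs. The libraries held 11263911 to 18646776 unique molecular identifiers (UMIs), and 7 barcodes occurred in more than 1 library. Levels are UMIs of a gene per 1000000 UMIs of all genes in a class and library (CPM). Since the RNA of a class was summed, a smaller share of cells with the transcript and fewer transcripts per cell cannot be told apart in a CPM.

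The Erg transcript did not separate the groups. In ECs Erg stood at 85.1 and 87.6 CPM in the WT libraries and at 105 and 81.6 CPM in the ERG CKO libraries, with a log2 fold change of 0.08 (SE 0.16, edgeR adjusted p = 0.864). The counts cover the whole gene, the position of the deleted exons is not given in the sources used here, and reads outside them check nothing, so group names below are those of the labels.

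The promoters of the 3 genes whose counts differed between the groups in at least 1 class of ECs, Efna1, Efnb1 and Epha4, are shown because ETS factors bind near start sites. Each window is 300 bases of RefSeq sequence (250 upstream and 50 downstream of a start, build GRCm38.p6), written 5′ to 3′ along the gene, with GGAAG or its reverse complement CTTCC in capitals.
Efna1 promoter, chr3:89280902-89281201, minus strand: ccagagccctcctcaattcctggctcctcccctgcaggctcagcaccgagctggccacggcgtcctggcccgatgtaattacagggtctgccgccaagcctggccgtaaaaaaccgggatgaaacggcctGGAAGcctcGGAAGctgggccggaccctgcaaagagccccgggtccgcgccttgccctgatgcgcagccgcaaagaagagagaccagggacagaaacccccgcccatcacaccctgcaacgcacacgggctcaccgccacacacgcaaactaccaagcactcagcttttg
Efnb1 promoter, chrX:99135811-99136110, plus strand: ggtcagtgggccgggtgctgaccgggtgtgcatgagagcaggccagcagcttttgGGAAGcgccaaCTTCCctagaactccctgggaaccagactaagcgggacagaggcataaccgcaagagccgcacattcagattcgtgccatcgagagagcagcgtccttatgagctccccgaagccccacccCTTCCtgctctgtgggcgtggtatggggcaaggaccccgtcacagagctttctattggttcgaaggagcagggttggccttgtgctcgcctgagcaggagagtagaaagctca
Epha4 promoter, chr1:77515039-77515338, minus strand: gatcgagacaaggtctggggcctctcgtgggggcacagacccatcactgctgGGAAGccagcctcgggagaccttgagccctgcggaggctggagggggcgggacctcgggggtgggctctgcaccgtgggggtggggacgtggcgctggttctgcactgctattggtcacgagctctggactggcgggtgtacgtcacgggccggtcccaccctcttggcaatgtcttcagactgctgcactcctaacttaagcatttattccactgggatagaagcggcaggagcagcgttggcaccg

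GGAAG, which contains the core, or its complement was found 2 times in this Efna1 window, 3 times in the Efnb1 window and 1 time in the Epha4 window, counting both strands. A second Efna1 window (chr3:89279596-89279895, minus strand) held 2. Among the other members, it was found 3 times at Epha2 (chr4:141300971-141301270, plus strand) and 1 time at Ephb4 (chr5:137349859-137350158, plus strand), and it was not found at Efnb2 (chr8:8661193-8661492, minus strand). GGAAG or its complement stood in 71.4% of all 32851 promoter windows of this length and the GGAA core in 96.0%, so a match is common. The matches describe these letters only, since no binding was measured.

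Which cells carried the 6 genes was read from their levels in 16 named classes with at least 10 cells in every library. The 3 ligands and Ephb4 were highest in ECs, mural cells, fibroblasts and platelets, and lymphocytes lay near 0 (plot of levels by class). B cells, which should lack these genes, had mean levels of 1.23 to 6.01 CPM and serve as the background. Noncoding genes annotated within Efnb2 overlap it, and how reads in such overlaps were counted is not given in the sources used here. EC markers were also counted in fibroblasts and proliferating cells, at sums given below, and their part in the levels there was not tested. These levels are a description, because the classes were built from the same cells.

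**Figure D1:**
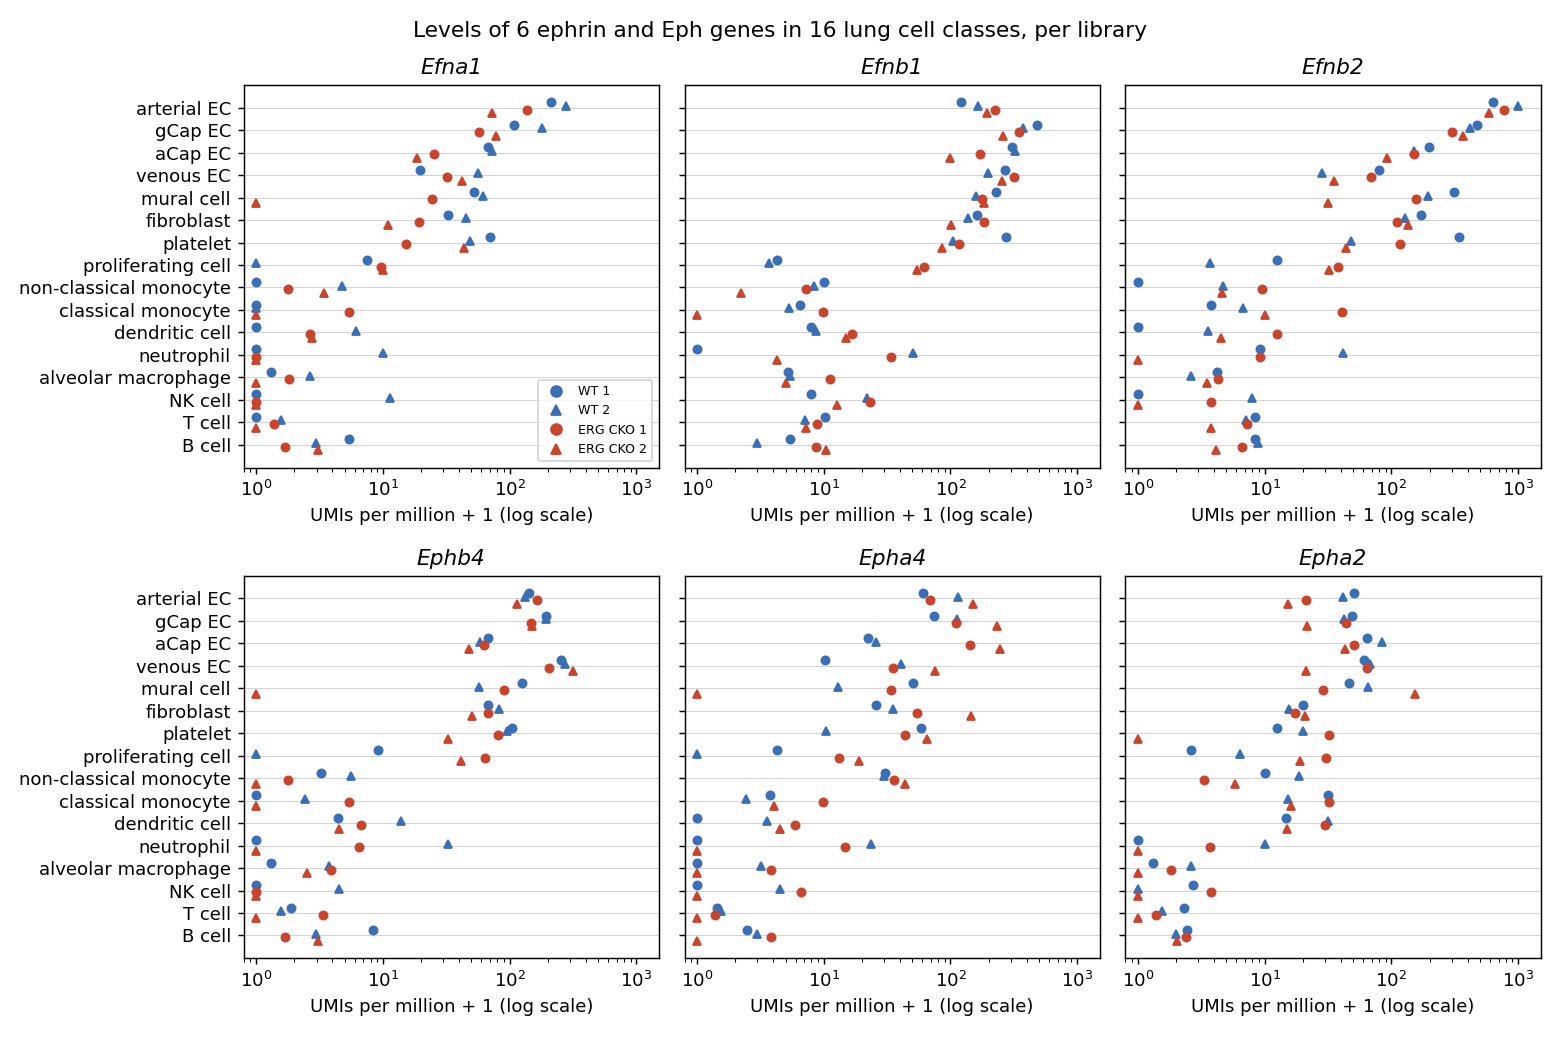
CPM of each member plus 1 (horizontal log axis) in 16 classes (rows), with 1 point per library, circles for replicate 1 and triangles for replicate 2, blue for WT and red for ERG CKO. Efnb2 peaks in arterial ECs (mean 749 CPM) and Ephb4 in venous ECs (mean 261 CPM), and all 6 genes are near the left edge in T and B cells.

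Efnb2, the arterial ligand, was highest in arterial ECs, at 631 and 1004 CPM in the WT libraries and 775 and 584 CPM in the ERG CKO libraries. All 4 values lay above every gCap EC value of Efnb2 (297 to 476 CPM). In venous ECs Efnb2 stood at 27.5 to 78.7 CPM, below its range in arterial, gCap and aCap ECs.

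Ephb4, the receptor of ephrin-B2, ran the other way within the vessel tree. In venous ECs Ephb4 was at 255 and 272 CPM in the WT libraries and 205 and 313 CPM in the ERG CKO libraries. The lowest venous value of Ephb4 was above the highest in gCap ECs (146 to 194 CPM), and gCap and arterial ECs (114 to 163 CPM) overlapped. In aCap ECs Ephb4 was at 47.2 to 66.7 CPM.

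Efna1, an A-type ligand that cytokines induce in endothelium, had its highest mean in arterial ECs (174 CPM, range 71.2 to 278). It was followed by gCap ECs with a mean of 105 CPM (56.8 to 178) and aCap ECs with 44.9 CPM (17.5 to 71.1). Each of these neighbours overlapped over the 4 libraries. From fibroblasts (26.0 CPM) to proliferating cells (6.06 CPM) the level dropped without overlap.

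Efnb1, the second B-type ligand, was spread more evenly over the vessel wall. Its mean was 365 CPM in gCap ECs, 258 in venous ECs, 224 in aCap ECs, 186 in mural cells and 175 in arterial ECs, and neighbours in that order overlapped. Fibroblasts (145 CPM) and proliferating cells (30.2 CPM) did not overlap.

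The 2 EphA receptors had no class that stood apart. Epha4, which binds ligands of both types, had its highest means in gCap ECs (131 CPM), aCap ECs (108 CPM) and arterial ECs (98.0 CPM), with wide ranges over the libraries, given by group below. Epha4 was also present in non-classical monocytes at 28.9 to 42.4 CPM. Epha2, a receptor for A-type ephrins, was lower, with means of 72.5 CPM in mural cells, 59.6 in aCap ECs, 52.8 in venous ECs and 38.2 in gCap ECs. The mural mean of Epha2 rested on 17 cells in ERG CKO replicate 2, which gave 152 CPM from 5 UMIs.

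Across 20 named classes, the genes whose levels were most like those of Efnb2 were Dll4 (Pearson r = 0.97), Plat (0.97) and Efna1 (0.97). Dll4 encodes an arterial Notch ligand and Plat the tissue plasminogen activator. Ephb4 was most like Meis2, Aqp1 and Gpr182 (r = 0.99, 0.99 and 0.98), Efnb1 most like Tspan7, Rasgef1a and Tmeff1 (0.98 each), and Efna1 most like Efnb2, Pik3r3 and Ptprm (0.97, 0.96 and 0.96). Epha4 (Sptan1, Card10 and Arhgef7, 0.93, 0.92 and 0.92) and Epha2 (Gm13056, Prpf40b and Coa3, 0.87, 0.86 and 0.86) had weaker partners. Among the members themselves r ran from 0.59 (Efna1 and Epha2) to 0.97 (Efna1 and Efnb2). All classes come from the same 4 libraries, and the shared gap between ECs and blood cells enters every one of these values.

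The comparison of the groups in ECs asked which of these genes differed in the cells that the CDH5-CreER(T) transgene targets. Efna1 was lower in the ERG CKO libraries, and it was the member of the 6 that passed the test in ECs as a whole. Efna1 stood at 97.0 and 147 CPM in the WT libraries and at 49.3 and 60.5 CPM in the ERG CKO libraries (mean 122 ± 35.3 against 54.9 ± 7.90 CPM, SD, n = 2 each). The groups did not overlap, and the log2 fold change was −1.20 (SE 0.21, edgeR adjusted p = 0.0255). An Efna1 UMI was found in 32.6% (95% exact interval 28.8 to 36.6%) and 43.5% (39.8 to 47.3%) of WT ECs and in 23.4% (20.4 to 26.6%) and 24.8% (21.1 to 28.8%) of ERG CKO ECs. The share in B cells was 0.397% to 1.14%, and median depths were 4009 to 5445 UMIs in ECs and 3936 to 5075 in B cells. These intervals cover counting error only.

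The other 5 members did not pass the edgeR test in ECs, where 3.28% of 10706 genes were called, 1.95% higher and 1.33% lower. Efnb2 was at 405 and 343 CPM in the WT libraries and 248 and 282 CPM in the ERG CKO libraries (log2 fold change −0.54, SE 0.14, edgeR adjusted p = 0.0978). Ephb4 was at 176 and 173 against 135 and 128 CPM (−0.45, SE 0.12, edgeR adjusted p = 0.0988). The libraries of the groups did not overlap in ECs in any of the 6 members, but these differences stayed above the threshold of 0.05. The share of all genes without overlap was not computed, in ECs or in other classes, so non-overlap is a description only. Efnb1 (−0.59, SE 0.21) and Epha2 (−0.54, SE 0.25) also had negative estimates in ECs. With each library left out in turn, Efnb1 ran from −0.91 to −0.34 and Epha2 from −1.08 to −0.23. Epha4 had the one positive estimate, at 58.3 and 86.7 CPM against 98.8 and 220 CPM (1.07, SE 0.35, edgeR adjusted p = 0.165), and ERG CKO replicate 2 carried most of it, since without that library the estimate was 0.41. The median log2 fold change of the 6 members was −0.54, beside 0.01 for all genes tested.

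The replicate number went with the sex of the mice. Xist stood at 992 and 1044 CPM in the replicate 1 libraries and 0 in the replicate 2 libraries, and the Y-linked gene Ddx3y at 0 in the first and at 113 and 121 CPM in the second, so by these transcripts each group held 1 female and 1 male library. Efna1 was lower in the ERG CKO library within each number (97.0 against 49.3 and 147 against 60.5 CPM). With the number as a term of the fit, 5 of the 6 members were called in ECs, where that fit called 8.01% of all genes. These were Efna1 (−1.17, edgeR adjusted p = 0.00147), Epha4 (1.03, edgeR adjusted p = 0.00432), Efnb1 (−0.60, edgeR adjusted p = 0.0140), Efnb2 (−0.54, edgeR adjusted p = 0.0347) and Ephb4 (−0.45, edgeR adjusted p = 0.0387). In gCap ECs the same 5 genes were called, where the fit called 11.9% of all genes. What else differs between the numbers is not given in the sources used here.

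**Figure D2:**
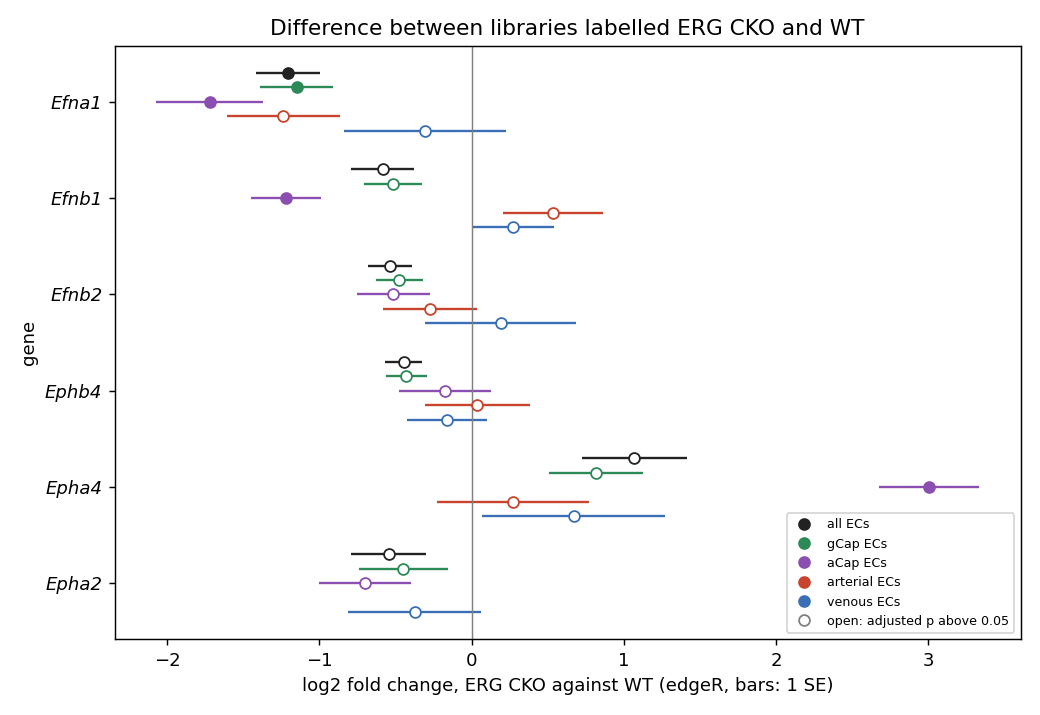
Log2 fold change of ERG CKO against WT libraries (horizontal axis, bars 1 SE of the edgeR fit) for each member (rows) in all ECs and in 4 EC subtypes (colours), with filled points for an adjusted p of at most 0.05. Efna1 is filled and left of 0 in all ECs, gCap ECs and aCap ECs, and Epha4 stands at 3.0 in aCap ECs.

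In gCap ECs, the largest capillary class, Efna1 was again lower, at 108 and 178 CPM in the WT libraries and 56.8 and 77.6 CPM in the ERG CKO libraries (log2 fold change −1.15, SE 0.24, edgeR adjusted p = 0.0281). It was the 1 member called there, beside 3.93% of 9819 genes (2.59% higher and 1.34% lower). In this class the 9 gCap markers summed to 7942 and 8150 CPM in the WT libraries and 6080 and 6283 CPM in the ERG CKO libraries (7 of 9 lower in both), and the 6 erythroid markers to 36.5 and 47.3 against 2650 and 3819 CPM (5 of 6 higher). Of the aCap and the venous markers, 6 of 10 each were higher in both ERG CKO libraries. The part of these markers in the Efna1 level was not tested. The Efna1 call was lost without WT replicate 2 (−0.75, adjusted p = 0.151) and without ERG CKO replicate 1 (−0.95, adjusted p = 0.0582). The 4 clusters that made up the gCap ECs each had both ERG CKO values of Efna1 below both WT values. In the cluster led by Igfbp3, Col13a1 and F8 (147 cells) Efna1 was at 138 and 384 against 101 and 77.7 CPM, and in the one led by Snhg20, Cxcl12 and Lpl (461 cells) at 172 and 233 against 66.9 and 121 CPM. The cluster led by Igfbp3 was named by 4 gCap markers at a mean log2 fold of 0.23, and its leading genes included the aCap marker Apln. All 4 clusters come from the same mice and add no replicates.

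A cluster of 892 shallow cells, with medians of 969 to 1051 UMIs per library and EC markers ahead of others, was left unnamed and outside the ECs. Its Efna1 level was 91.7 and 106 CPM in the WT libraries and 30.9 and 31.2 CPM in the ERG CKO libraries, from 60 UMIs in all. Counting these cells with the ECs, an alternative chosen after seeing the data, left the Efna1 estimate at −1.24 (adjusted p = 0.0366).

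Markers of other cells and of the ECs themselves moved with the groups. The 6 erythroid markers summed to 34.9 and 50.9 CPM in WT ECs and to 1546 and 2201 CPM in ERG CKO ECs, with 5 of 6 higher in both ERG CKO libraries. The 7 platelet markers summed to 55.4 and 125 against 297 and 177 CPM, with 6 of 7 higher. The 9 EC markers summed to 19883 and 20634 against 15609 and 16489 CPM, with 9 of 9 lower. Their part in the member levels was not tested. Leaving out the EC clusters led by genes of other cells, an alternative chosen after seeing the data, gave −1.22 for Efna1 (adjusted p = 0.0189).

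The Efna1 call in ECs depended on whether a mixed cluster was counted with the ECs. Without alignment of the libraries before clustering, 676 cells, of which 368 and 293 were from the ERG CKO libraries and 6 and 9 from the WT libraries, formed a cluster that stayed unnamed because it also carried markers of another class. The EC class then held 571 and 679 WT cells and 382 and 207 ERG CKO cells, and the Efna1 estimate was −0.65 (adjusted p = 0.423). When EC clusters with markers of another class were kept, an alternative chosen after seeing the data, the Efna1 estimate without alignment was −1.21 (adjusted p = 0.0263), and 346 genes were called in ECs beside 351 with alignment and 50 with the mixed cluster left out.

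Aerocytes, the thin capillary cells that lie against the alveolar surface, showed the widest differences of the members among the 4 EC subtypes. Ephb4 was the exception, at −0.18 beside −0.43 in gCap ECs. Here 3 of the 6 members were called, Epha4 higher and Efna1 and Efnb1 lower, in a class where 11.2% of 6848 genes were called (5.27% higher and 5.96% lower). Epha4 stood at 21.2 and 25.0 CPM in the WT libraries (7 and 13 UMIs) and at 141 and 247 CPM in the ERG CKO libraries (93 and 141 UMIs), a log2 fold change of 3.0 (SE 0.33, edgeR adjusted p = 1.12e-06). Every cell group behind these values was small, with 44 and 71 aCap ECs in the WT libraries and 103 and 95 in the ERG CKO libraries.

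More aCap ECs held an Epha4 UMI in the ERG CKO libraries. The share was 11.4% (95% exact interval 3.79 to 24.6%) and 12.7% (5.96 to 22.7%) in the WT libraries and 40.8% (31.2 to 50.9%) and 53.7% (43.2 to 64.0%) in the ERG CKO libraries. Depth ran the other way, with medians of 6957 and 7455 UMIs per WT cell and 6013 and 5725 UMIs per ERG CKO cell. With each cell thinned to 1000 UMIs, which left out no aCap EC, the shares were 6.82% and 2.82% against 16.5% and 23.2%. In B cells the share before thinning was at most 1.19%.

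The ligands Efna1 and Efnb1 were both lower in the ERG CKO aCap ECs. Efna1 was at 66.7 and 71.1 CPM in the WT libraries and 24.3 and 17.5 CPM in the ERG CKO libraries (log2 fold change −1.72, SE 0.35, edgeR adjusted p = 0.00146), and DESeq2 gave −1.74 without a call (adjusted p = 0.119). Efnb1 was at 306 and 319 against 171 and 98.0 CPM (−1.22, SE 0.23, edgeR adjusted p = 0.000613). In both genes the groups did not overlap, and the same held for Epha4, Epha2 and Efnb2 in this class. Thinned to 1000 UMIs, Efnb1 lost the call (−0.71, adjusted p = 0.423).

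The remaining members were not called in aCap ECs. Epha2 was at 63.7 and 82.7 CPM against 50.02 and 42.0 CPM (−0.70, SE 0.30, edgeR adjusted p = 0.162), and Efnb2 was at 197 and 150 against 149 and 91.0 CPM (−0.52, SE 0.24, edgeR adjusted p = 0.211). Ephb4 overlapped between the groups (−0.18, SE 0.30). Over the processing alternatives the Epha2 estimate ran from −0.96 to −0.47, and 1 alternative gave it a call. The Efnb2 estimate ran from −0.94 to −0.20. The median over the 6 members was −0.61, beside 0.02 for all genes tested.

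The aCap class itself differed between the groups. All 10 aCap markers were lower in both ERG CKO libraries than in both WT libraries, and their sum fell from 23930 and 25470 CPM to 8519 and 11586 CPM (plot of members and markers in aCap ECs). The 9 EC markers summed to 25068 and 24805 against 13798 and 13921 CPM, with 9 of 9 lower, while the 10 venous markers summed to 72.8 and 61.5 against 221 and 220 CPM. Without alignment only 4 and 1 cells of the ERG CKO libraries were named aCap ECs beside 43 and 71 of the WT libraries. The member values of that fit were therefore not used. Of the aCap ECs of the ERG CKO libraries, 99 of the 103 and 94 of the 95 lay in the unnamed cluster described above. In cells chosen by at least 7 of the 10 aCap markers instead of by cluster, an alternative chosen after seeing the data, Epha4 was higher by 2.71 (adjusted p = 9.28e-05), Efna1 lower at −1.47 (adjusted p = 0.00636) and Efnb1 lower at −1.07 (adjusted p = 0.00196). This choice used the markers that also named the cluster, and it held 111 and 97 ERG CKO cells and 46 and 73 WT cells. They come from the same mice and add no replicates. The part of the markers in the member levels was not tested further.

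**Figure D3:**
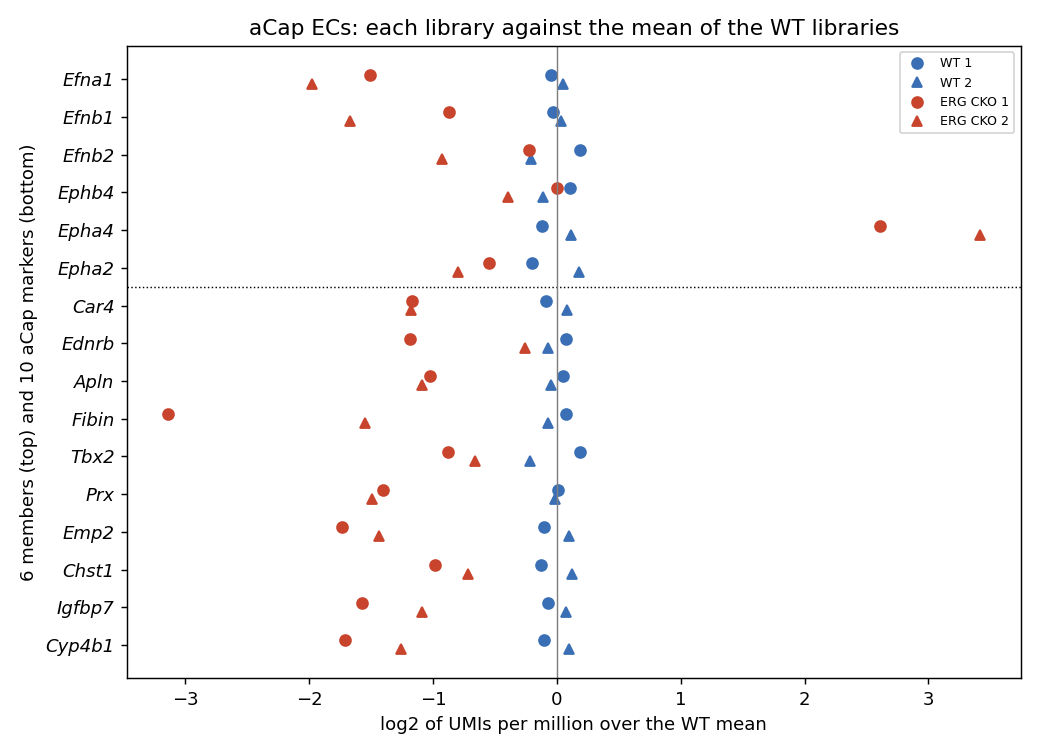
Log2 of the CPM in each library over the mean of the WT libraries (horizontal axis) for the 6 members and the 10 aCap markers (rows) in aCap ECs, circles for replicate 1 and triangles for replicate 2, blue for WT and red for ERG CKO. Epha4 lies right of 0 at 2.61 and 3.42 in the ERG CKO libraries, and all 10 markers lie left of the WT libraries.

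Whether the effect in a subtype differed from that in gCap ECs was tested with an interaction term. Epha4 in aCap ECs was the 1 call among the 6 members and 3 subtypes, with a difference of log2 fold changes of 2.26 (SE 0.33, edgeR adjusted p = 5.58e-05), where 4.97% of 7930 genes were called for aCap ECs (1.83% with a positive and 3.14% with a negative difference). Without WT replicate 2 this difference was 2.02 (adjusted p = 0.0569), and thinned to 1000 UMIs it was 1.85 (adjusted p = 0.0768). The difference for Efnb1 in aCap ECs was −0.74 (SE 0.25, edgeR adjusted p = 0.0849) and that for Efna1 −0.54 (SE 0.40, edgeR adjusted p = 0.60). For arterial and venous ECs, 0.303% and 0.504% of genes were called and none of the members by edgeR. In each, 1 member was at an unadjusted p under 0.05, both times Efnb1, beside 600 and 587 of 7930 genes.

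Arterial and venous ECs gave no call among the members, by edgeR or DESeq2, and the backgrounds there were 0% of 2500 genes and 0.0636% of 4718 genes. In arterial ECs Efna1 was at 210 and 278 CPM in the WT libraries and 136 and 71.2 CPM in the ERG CKO libraries (log2 fold change −1.24, SE 0.37, edgeR adjusted p = 0.468). These groups did not overlap, but the values rest on 10 to 34 UMIs per library. Without ERG CKO replicate 1, which left 1 library in that group, the Efna1 estimate was −1.77. Efnb2, the arterial marker, overlapped between the groups in arterial ECs (−0.27, SE 0.31), and Ephb4, the venous marker, overlapped in venous ECs (−0.16, SE 0.26). Efnb1 had positive estimates in arterial (0.54, SE 0.33) and venous ECs (0.27, SE 0.26), neither called. Epha2 passed the filter on low counts in venous but not in arterial ECs, where it was listed with a mean of 31.4 CPM. In venous ECs Efna1 stood at 18.5 and 55.1 CPM against 30.8 and 40.8 CPM.

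**Figure D4:**
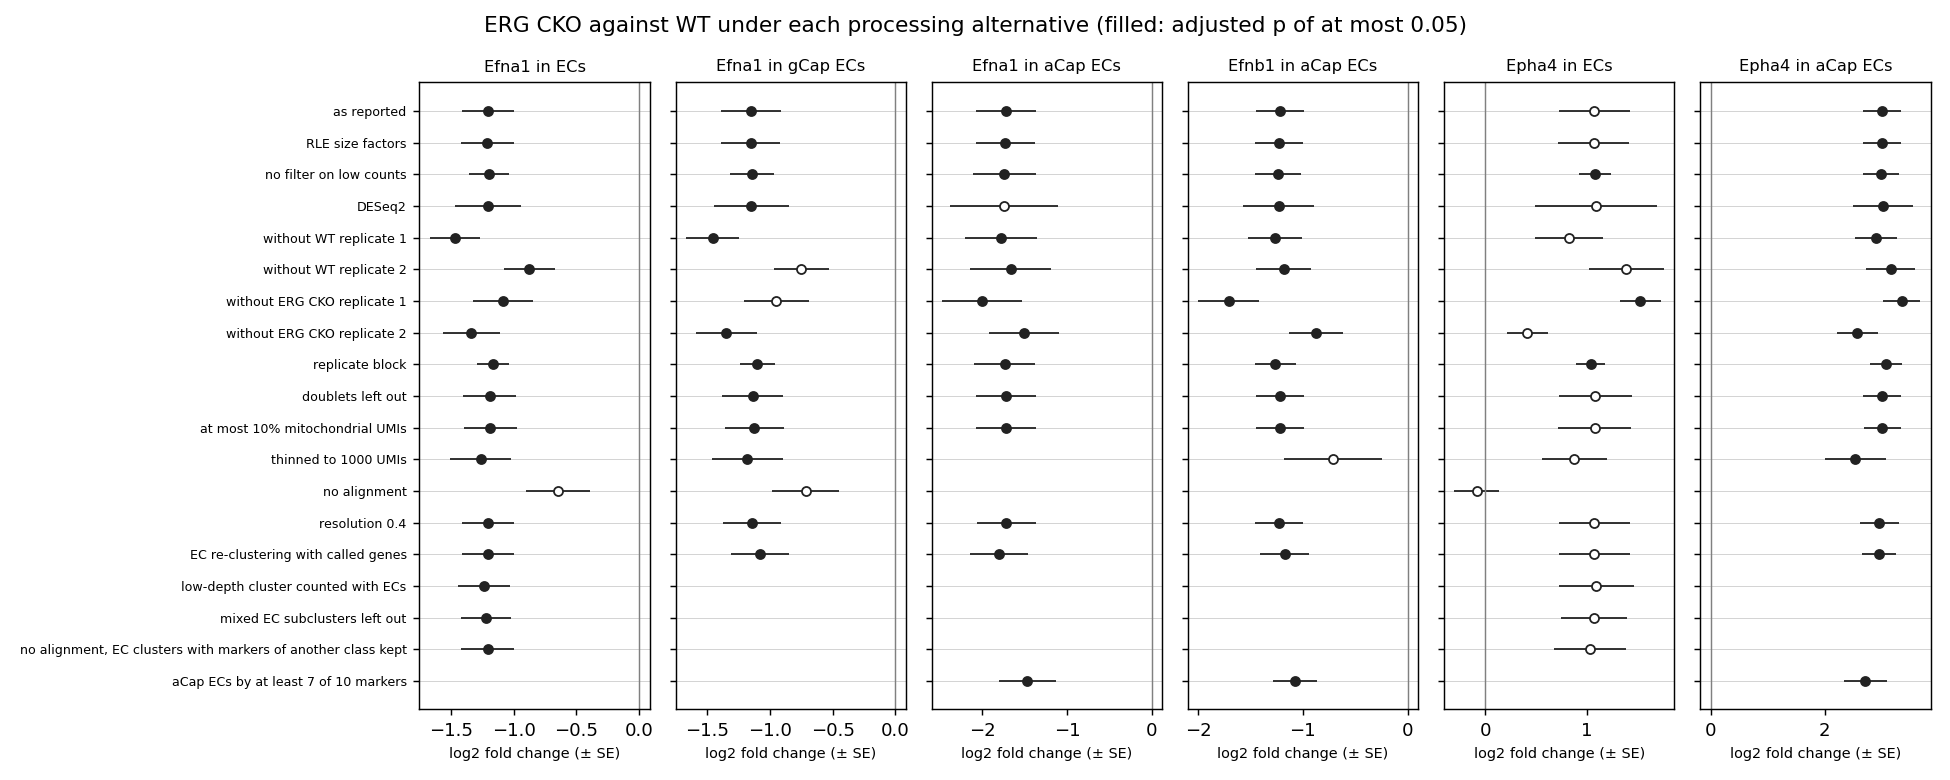
Log2 fold change with its SE (horizontal axes) of Efna1, Efnb1 and Epha4 in the EC classes named above each panel under each processing alternative (rows), with filled points for an adjusted p of at most 0.05. Efna1 in ECs stays left of 0 from −1.47 to −0.65 and is open without alignment, and Epha4 in aCap ECs stays right of 0 from 2.54 to 3.34. Alternatives whose value in a class was missing or not used have no point.

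Outside the ECs, 12 classes were tested and 21 of 72 pairs of member and class passed the filter on low counts. None of them was called by edgeR or DESeq2, and edgeR called 0.163% of all gene and class pairs. At an unadjusted edgeR p under 0.05 were 5 pairs, all in fibroblasts and proliferating cells. There 686 of 7901 and 449 of 6678 genes were at such a p. In fibroblasts 0.595% of genes were called and in proliferating cells 0%. In fibroblasts Epha4 was at 24.9 and 34.3 CPM in the WT libraries and 53.5 and 144 CPM in the ERG CKO libraries (log2 fold change 1.48, SE 0.45, edgeR adjusted p = 0.310). Efna1 in fibroblasts was at 31.7 and 44.2 against 18.1 and 9.91 CPM (−1.14, SE 0.43, edgeR adjusted p = 0.475). ERG CKO replicate 2 gave 27 fibroblasts. Other lists moved with the groups in fibroblasts. The 7 interstitial macrophage markers summed to 2355 and 2524 CPM in the WT libraries and 3448 and 8589 CPM in the ERG CKO libraries (6 of 7 higher in both), the 7 platelet markers to 86.2 and 68.7 against 432 and 773 CPM (6 of 7 higher), and the 14 fibroblast markers to 14097 and 14916 against 9158 and 11110 CPM (8 of 14 lower). The 9 EC markers summed to 5911 to 6734 CPM over the 4 libraries. Their part in the member levels was not tested.

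Proliferating cells held the other 3 differences. Efnb1 was at 3.27 and 2.71 CPM in the WT libraries, from 2 and 1 UMIs. In the ERG CKO libraries it was at 61.1 and 53.7 CPM, from 35 and 12 UMIs (log2 fold change 4.13, SE 0.59, edgeR adjusted p = 0.0787). Ephb4 was at 8.19 and 0 against 62.9 and 40.3 CPM (3.37, SE 0.73, edgeR adjusted p = 0.154), and Efnb2 at 11.5 and 2.71 against 36.7 and 31.3 CPM (2.09, SE 0.67, edgeR adjusted p = 0.440). The 9 EC markers summed to 887 and 439 CPM in the WT libraries and to 3137 and 1258 CPM in the ERG CKO libraries of this mixed class, with 7 of 9 higher. The class had 15 to 33 cells per library.

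Of the 16 other ephrin and Eph genes listed, 15 were in the matrix and 2 passed the filter in ECs. Efna2, another A-type ligand, was lower in the ERG CKO ECs, at 32.3 and 16.3 CPM against 7.38 and 7.79 CPM (log2 fold change −1.70, SE 0.36, edgeR adjusted p = 0.0490). The groups did not overlap, but the call was lost in several alternatives. In gCap ECs Efna2 was also called by edgeR (−1.76, edgeR adjusted p = 0.0257), while DESeq2 called 0 of these listed genes there. Efna4 was not called (−0.36, SE 0.53). The receptors Epha3 and Epha1 gave 57 and 53 UMIs in fibroblasts and 1 and 6 in ECs.

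Proteins that act next to the receptors were read from a list of 28, of which 25 were tested in ECs. None was called by edgeR or DESeq2, and 7 were at an unadjusted edgeR p under 0.05. Of all 10706 genes tested in ECs, 1779 were at such a p. The median log2 fold change of the 25 was 0.06, with 13 positive and 12 negative. In aCap ECs 21 were tested and 4 were called, all lower, in the class where 11.2% of all genes were called and 5.96% were called lower. They were the adaptor Nck1 (−1.07, edgeR adjusted p = 0.00108), the exchange factor Vav3 (−1.10, edgeR adjusted p = 0.00244), the EphA-binding adaptor Anks1 (−1.20, edgeR adjusted p = 0.0132) and Arhgef15, an exchange factor found in endothelium (−0.82, edgeR adjusted p = 0.0148). These 4 were named because they passed in aCap ECs.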

How the data were processed

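The authors deposited a matrix of UMI counts per gene and cell, made with Cell Ranger 3.1.0 on mm10 per the labels, already filtered to cells with at least 300 genes. It holds more cells than the study kept after its own filtering. No values of the authors' own comparisons were used. Cells were aligned across libraries and clustered in Seurat 5.3.0 (2000 variable genes, without the 349 EC-called genes when ECs were re-clustered), and clusters were named by marker lists. Scrublet in scanpy 1.11.5 marked 60 doublets (0.641%), which were kept. Counts were summed per library and class and tested with edgeR 4.0.16 (quasi-likelihood, TMM, filterByExpr, Benjamini-Hochberg over all genes tested, threshold 0.05), with DESeq2 1.42.0 as an alternative. On simulated counts the EC test was checked for recovery of known changes. Gene positions are from GENCODE on GRCm38. All 6 members matched the RefSeq promoter table. Coordinates are 1-based.

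The members and lists were chosen with earlier results of these data known, and the study named Efna1 on these libraries, so its direction is not independent evidence. Limits for naming clusters (a second class at a mean log2 fold of at least 1 and 0.5 of the first) were chosen after seeing the data. Named were the members, Erg, list genes called in ECs, and the 3 genes most like each member across classes by log2(mean CPM + 10), among 11261 genes with at least 20 CPM in a class. The 4 list genes called in aCap ECs and genes quoted for contrast were added after their values were seen.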

Additional observations from a re-analysis of the deposited data

Results flagged for a closer look

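The effect on Epha4 differed between EC subtypes. Its log2 fold change in aCap ECs exceeded that in gCap ECs by 2.26 (SE 0.33, edgeR interaction term, adjusted p = 5.58e-05). Both ERG CKO libraries were above both WT libraries in aCap ECs, whereas the groups overlapped in gCap ECs (73.4 and 111 against 110 and 232 CPM). The aCap markers moved with the same libraries, as given above, and their part in this difference was not tested.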

How the results depend on the processing

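Of 416 recomputed values of single members, 359 kept their direction and their side of the threshold, 8 lost the call, 26 gained it and 23 changed sign. The Efna1 estimate in ECs lay between −1.47 and −0.65. That of Epha4 in aCap ECs lay between 2.54 and 3.34, where the fit without alignment was not used. Arterial ECs held 84 and venous ECs 167 cells over 2 mice per group, where edgeR called 0 and 3 genes.

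With no filter on low counts, edgeR called 5 members in ECs in place of 1 and 3 in gCap ECs in place of 1. It also called 3 pairs in other classes and 4 mediators in ECs, in place of 0 each. Of all genes, 6.87% of 17018 were called in ECs and 5.25% of 16070 in gCap ECs, beside 3.28% and 3.93% with the filter. The share over all pairs in other classes was not computed without the filter. Without alignment 0 members were called in ECs and 0 in gCap ECs, and the class with the highest level was kept by 3 members of 6, where no arterial class was named, so Efna1 and Efnb2 could not keep theirs, and Epha2 moved to an aCap class with 4 and 1 ERG CKO cells. These values leave out the mixed cluster of mostly ERG CKO cells, with which the Efna1 call returned. With that cluster left out the estimates without alignment in ECs were 0.031 for Efnb1, 0.013 for Efnb2, 0.052 for Ephb4 and −0.083 for Epha4, those in gCap ECs 0.061 for Efnb1 and −0.26 for Epha4, and that in venous ECs −0.27 for Efnb2. Thinned to 1000 UMIs, 1 member was called in aCap ECs in place of 3, where 8.58% of 1749 genes were called beside 11.2% of 6848. Efna1 had no value in that aCap fit. In thinned cells 0 effects differed between subtypes in place of 1, with 58 of 1967 genes called higher and 91 lower for aCap ECs. Epha4 was then highest in aCap ECs in place of gCap ECs, and Epha2 in venous ECs, where no mural class was kept. Efna2, the 1 other family gene called in ECs, gave 0 calls with doublets left out, at most 10% mitochondrial UMIs, thinned cells, no alignment, resolution 0.4, the low-depth cluster counted with ECs, mixed EC subclusters left out, and no alignment with mixed EC clusters kept. The other causes were not tested.

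Leaving out each library in turn left 1 library in 1 group, so only estimates are given here for these fits. Efna1 ran from −1.47 to −0.88 in ECs and from −1.46 to −0.75 in gCap ECs. In aCap ECs the highest estimate of Efna1 was −1.51, Efnb1 ran from −1.71 to −0.87 and Epha4 from 2.57 to 3.34. The Epha4 difference between aCap and gCap ECs ran from 2.02 to 2.38. Signs changed in these fits for Ephb4 in aCap ECs (−0.41 to 0.013). They also changed for Efnb2 (−0.58 to 0.018), Ephb4 (−0.24 to 0.25) and Epha4 (−0.41 to 0.76) in arterial ECs. In venous ECs they changed for Efnb1 (−0.0058 to 0.47), Efnb2 (−0.65 to 0.98) and Ephb4 (−0.42 to 0.10).

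With the replicate number, which goes with sex, as a block, 5 members and 4 mediators were called in ECs, where 8.01% of all genes were called. In gCap ECs 5 members were called, beside 11.9% of all genes. In other classes 2 pairs were called, and the share over all pairs there was not computed for the block. In the block fit venous Efna1 was 0.0087 and venous Efnb2 −0.12. Deviations of log2 CPM from the group mean correlated at 0.298 over 10706 genes between the replicate 1 libraries of WT and ERG CKO. With 2 libraries per group, this value also fixes that of the replicate 2 libraries. No label says what the numbers share.

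Ephb4 in arterial ECs was −0.26 at resolution 0.4 and −0.18 after EC re-clustering with called genes, Ephb4 in venous ECs was 0.36 in thinned cells, and DESeq2 gave −0.046 for venous Efnb2. Genes called in ECs numbered 351 of all tested, from 50 without alignment to 1169 without a filter, and in aCap ECs 769, from 150 in thinned cells and 315 with DESeq2 to 962 with the block, and 0 of 3330 without alignment, where 4 and 1 ERG CKO cells remained. In gCap ECs they numbered 386, from 4 without alignment to 1170 with the block. DESeq2 called 1 mediator in aCap ECs where edgeR called 4. The interaction was not run without alignment, with DESeq2 or with the block, and the members' aCap values without alignment were not used, for the same small number of cells.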
